A study of Mus musculus with 3 samples.

Results

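The 36 cell cycle genes described here comprise the G1 cyclin Ccnd1, 12 genes of the G1/S step and of DNA synthesis, and 23 genes of G2 and mitosis. They were taken by symbol from the 32285 genes of the count matrices, and all 36 had at least 1 unique molecular identifier (UMI, the tag that counts captured mRNA molecules) in every library. The libraries came from femoral arteries of 8-week-old wild-type male mice: a sham-operated library (Sham), 1 taken 2 days after wire injury (D2) and 1 taken 7 days after it (D7). Vessels of 6 mice were pooled for each library, live single cells excluded DAPI and were sorted, and 3' single-cell libraries were made. The time at which Sham vessels were harvested is not given in the sources used here. The study addressed neointimal hyperplasia, the growth of new tissue inside an artery after its lining is damaged. There was 1 library per condition, so no difference between conditions has a replicate check, no p-value is given, and every interval below is an exact 95% interval that covers counting error only.

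A dividing cell passes from G1 into S phase, in which it copies its DNA, and then through G2 into mitosis, in which the copies are separated. D-type cyclins start the passage through G1, E-type cyclins bring the cell into S phase, and A- and B-type cyclins with the kinase Cdk1 drive mitosis. Each set of genes is transcribed mainly in its own phase, so mRNA of these genes marks cells in cycle. In a healthy artery smooth muscle cells, fibroblasts and endothelial cells are mostly at rest, and after wire injury smooth muscle and fibroblast growth builds the neointima while endothelial cells cover the denuded surface.

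The Sham, D2 and D7 matrices held 7757, 11690 and 11574 barcodes, of which 7387, 11000 and 10895 cells remained after removal of poor barcodes and called doublets. Median depth was 4102 UMIs per cell in Sham, 6628 in D2 and 6740 in D7. Each cell was therefore thinned at random to 2000 UMIs before its members were counted, which left out 2407 Sham cells (32.6%), 520 D2 cells (4.73%) and 799 D7 cells (7.33%) that were shallower than that. Between 21 and 29 barcodes were shared by any pair of libraries. Cell classes were rebuilt from marker genes on clusters formed without cell cycle genes, so a class name carries "-like", and 4 of 31 clusters stayed unnamed. The largest unnamed cluster held 1764 Sham, 21 D2 and 178 D7 cells at a median of 829 UMIs. Fibroblast markers scored highest in it. Only 95 of its Sham cells reached 2000 UMIs, of which 1 was dividing. Its cells lie outside the fibroblast-like class and the shares of that class. The smooth muscle-like class was 1 cluster that held smooth muscle and pericyte markers together.

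A cell was counted as dividing when at least 4 of the 36 members had a UMI after thinning. Of 25556 thinned cells, 15700 showed no member, 7385 showed 1 and 1615 showed 2. The values nearest the threshold were 341 cells with 3 members, just outside, and 113 cells with 4, just inside. A further 234 cells showed 8 or more, up to 18, and 515 cells in all were counted as dividing. The median dividing cell showed 9 members in Sham, 6 at D2 and 7 at D7, so the D2 calls lay nearest the threshold. Of the dividing cells, 52 of 77 in Sham, 54 of 152 at D2 and 128 of 286 at D7 showed 8 or more. Dividing cells were deeper than the rest before thinning: their median was 13522 UMIs against 6243 in Sham, 19316.5 against 7109 at D2 and 17662 against 7186 at D7.

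The share of dividing cells over all classes was 1.55% in Sham (77 of 4980; 1.22 to 1.93), 1.45% at D2 (152 of 10480; 1.23 to 1.70) and 2.83% at D7 (286 of 10096; 2.52 to 3.18). Without thinning the shares were 5.36% in Sham, 11.6% at D2 and 12.2% at D7. The thinned D7 share was 1.83 times the Sham share (1.42 to 2.39), and the D2 share was 0.938 times the Sham share (0.709 to 1.25). The D2 library thus had a higher share than Sham without thinning and an overlapping one with it, and the classes behind these totals differed among the 3 libraries.

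Neutrophils leave the cycle before they enter the blood, and the neutrophil-like cells served as a measure of free RNA. Their dividing share was 1 of 143 cells in Sham, 0.0457% at D2 (2 of 4372; 0.00554 to 0.165) and 0.197% at D7 (3 of 1521), at class medians of 3991, 3810 and 3366 UMIs. B-like cells gave 0 of 271 in Sham, 0 of 361 at D2 and 0.401% at D7 (3 of 749). All classes were compared at the same 2000 UMIs, and the part of free RNA in the shares of the other classes was not tested.

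Printed here are promoters of 2 G2/M members and 2 S phase members, since the text follows these gene groups. Top2a and Ube2c held the most motif matches of the G2/M promoters. Among S phase promoters Mcm3 and Mcm5 tied for the most with Mcm6, which held 2 CCAAT and 3 E2F matches. Mcm6 came last of the 3 by symbol and is not printed. The sequences run from 250 bases before to 50 after the annotated start, 5′ to 3′ on the gene's strand, and come from RefSeq on GRCm38.p6. Top2a lies at chr11:99024140-99024439 on the minus strand, Ube2c at chr2:164769679-164769978 on the plus strand, Mcm3 at chr1:20820263-20820562 on the minus strand and Mcm5 at chr8:75109259-75109558 on the plus strand. Capitals mark matches to 3 motifs on either strand: the cell cycle homology region, CHR (TTTGAA or TTCGAA), the CCAAT box (CCAAT) and an E2F site (TTTGGCGC, TTTCGCGC, TTTCCCGC or TTTGGCGG). Matches may overlap: the longest capital run of Ube2c holds a CCAAT box on each strand, and the longest capital run of Mcm5 holds 2 E2F matches.
Top2a: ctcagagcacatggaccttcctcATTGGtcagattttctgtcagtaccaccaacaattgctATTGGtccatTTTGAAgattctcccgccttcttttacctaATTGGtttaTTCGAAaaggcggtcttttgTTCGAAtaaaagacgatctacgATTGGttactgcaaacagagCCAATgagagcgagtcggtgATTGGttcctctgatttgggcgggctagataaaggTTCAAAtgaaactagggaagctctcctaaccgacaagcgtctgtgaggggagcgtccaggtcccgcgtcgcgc
Ube2c: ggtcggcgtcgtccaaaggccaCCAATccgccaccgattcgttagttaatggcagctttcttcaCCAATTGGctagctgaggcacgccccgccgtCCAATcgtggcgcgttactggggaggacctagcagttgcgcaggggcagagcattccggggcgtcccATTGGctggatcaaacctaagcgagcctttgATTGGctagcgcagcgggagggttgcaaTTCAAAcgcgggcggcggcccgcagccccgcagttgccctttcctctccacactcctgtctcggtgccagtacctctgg
Mcm3: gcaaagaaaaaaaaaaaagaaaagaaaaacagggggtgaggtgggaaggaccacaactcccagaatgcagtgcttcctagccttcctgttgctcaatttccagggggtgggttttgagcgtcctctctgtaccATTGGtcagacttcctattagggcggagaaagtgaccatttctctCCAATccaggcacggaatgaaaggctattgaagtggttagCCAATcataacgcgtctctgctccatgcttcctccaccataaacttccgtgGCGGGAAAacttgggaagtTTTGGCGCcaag
Mcm5: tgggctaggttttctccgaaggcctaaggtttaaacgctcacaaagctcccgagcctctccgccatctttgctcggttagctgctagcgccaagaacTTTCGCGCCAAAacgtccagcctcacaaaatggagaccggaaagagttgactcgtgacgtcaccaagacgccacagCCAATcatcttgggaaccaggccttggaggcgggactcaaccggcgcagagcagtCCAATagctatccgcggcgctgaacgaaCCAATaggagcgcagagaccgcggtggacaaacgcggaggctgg

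Promoters were found for 29 of the 36 members. Those of Mcm4, Tpx2, Kif20a, Ccna2, Ccne2, Aurkb and Ccnd1 are named only. Top2a, the topoisomerase that untangles DNA before mitosis, held 4 CHR and 6 CCAAT matches. Ube2c, the ubiquitin-conjugating enzyme of the anaphase-promoting complex, held 1 CHR and 6 CCAAT matches. Mcm3 and Mcm5, subunits of the helicase that opens DNA for copying, each held 3 CCAAT and 2 E2F matches and no CHR match. A CHR match was present in 15 of 19 G2/M promoters, in 1 of 10 S phase promoters and in 19.2% of 32851 promoters of the same length. CCAAT was present in 17 of 19 G2/M promoters, in 8 of 10 S phase promoters and in 37.4% of all promoters. E2F matches occurred in 1 of 19 G2/M promoters, in 4 of 10 S phase promoters and in 2.37% of all promoters. These are matches of letters within a window and describe no binding.

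In dividing cells the members were detected to very different degrees. Among the G1/S and S phase genes, Pclaf, a partner of the DNA clamp, was detected in 67.5% of Sham, 39.5% of D2 and 43.4% of D7 dividing cells, against 0.0612%, 0.232% and 0.234% of the other cells. Pcna, the clamp itself, was detected in 50.6%, 43.4% and 39.5% of dividing cells, against 12.5%, 16.9% and 12.2% of the other cells. Pclaf was thus rare among the other cells at this depth, though these cells are far more numerous, whereas Pcna was found in many cells that showed few other members. Since the members chose these cells, the values describe the calls and test nothing.

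The remaining S phase genes were detected less often. At D7 the helicase subunits Mcm2, Mcm3, Mcm4, Mcm5 and Mcm6 were detected in 11.2%, 18.2%, 14.7%, 9.79% and 20.6% of dividing cells. The nucleotide synthesis genes Rrm1 and Rrm2, the subunits of ribonucleotide reductase, were found in 26.6% and 14.7%, and Tyms, thymidylate synthase, in 22.0%. Cyclins E1 and E2, encoded by Ccne1 and Ccne2, were found in 2.80% and 4.90% of D7 dividing cells and were the least often detected of the S phase list there.

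Among the G2/M genes the most often detected at D7 were Top2a in 47.6%, Birc5, the survivin subunit of the chromosomal passenger complex, in 45.8%, and Mki67, which coats mitotic chromosomes, in 43.7%. Mki67 also appeared in 1.87% of the other D7 cells, and Birc5 in 0.510%. The ubiquitin ligase arm gave 33.2% for Ube2c and 13.3% for its activator Cdc20. Among the kinases and cyclins, Cdk1 was detected in 27.3%, Ccna2 in 20.6%, Ccnb2 in 18.9% and Ccnb1 in 11.9% of D7 dividing cells.

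The chromosome and spindle genes lay lower. Of the kinetochore and centromere genes, Cenpa was detected in 31.1%, Cenpe in 25.2%, Cenpf in 22.0% and the checkpoint kinases Bub1 and Bub1b in 14.3% and 12.6% of D7 dividing cells. Of the spindle and cytokinesis genes, Tpx2 was detected in 23.8%, Kif11 in 21.0%, Nusap1 in 20.3%, Ect2 in 9.44% and Kif20a in 7.69%. The passenger complex gene Cdca8 was detected in 28.3%, and the mitotic kinases Aurkb, Plk1 and Aurka in 12.6%, 8.04% and 7.34%. Cenpa stood apart in the other direction: it was also found in 5.25% of the other D7 cells, the highest share of any G2/M member there.

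Dividing cells, 1.45% to 2.83% of each library, held 71.9% of the G2/M molecules of Sham, 57.9% of those of D2 and 74.1% of those of D7. Of the S phase molecules they held 32.2% in Sham, 22.4% in D2 and 33.8% in D7. Ccnd1, the cyclin D1 gene that responds to growth signals, lay mostly outside them: its UMIs fell in dividing cells for 4.87% in the Sham library, 11.7% in the D2 library and 14.2% in the D7 library. Since these genes chose the cells, the shares describe the calls.

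**Figure D1:**
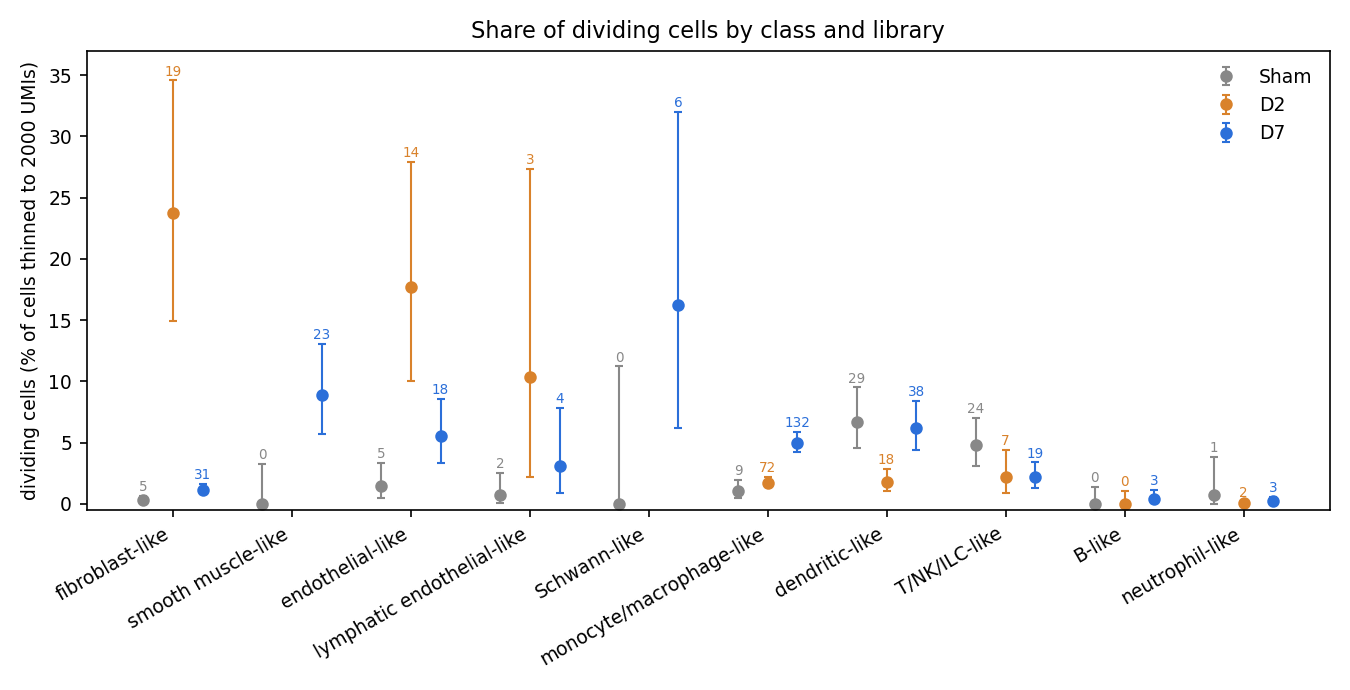
Share of cells counted as dividing (y axis, percent of cells thinned to 2000 UMIs) in each marker-defined class (x axis) for Sham, D2 and D7, with exact 95% binomial intervals and the number of dividing cells above each bar. The share was 23.8% in D2 fibroblast-like cells, and at D7 it was 8.91% in smooth muscle-like and 4.99% in monocyte/macrophage-like cells. Groups with fewer than 20 thinned cells are not drawn.

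Fibroblast-like cells made up most of the Sham and D7 stroma and were rare at D2. Dividing cells were 0.282% of them in Sham (5 of 1773; 0.0916 to 0.657), 23.8% at D2 (19 of 80; 14.9 to 34.6) and 1.14% at D7 (31 of 2728; 0.773 to 1.61). The unthinned shares were 3.18%, 51.1% and 10.8%. The D2 share was 84.2 times the Sham share (30.4 to 289), and the D7 share was 4.03 times the Sham share (1.55 to 13.3) and 20.9-fold lower than the D2 share. The plot of dividing shares by class shows D2 fibroblast-like cells with the highest point, from a small number of cells. Sham cells of this class lay mostly in clusters led by Inmt and Penk (63.9%) or Pi16 and Sema3c (34.8%), whereas 89.8% of D2 and 92.8% of D7 cells lay in 1 cluster led by Mfap4 and Cthrc1. Within that cluster the share was 25.7% at D2 (19 of 74) and 1.06% at D7 (27 of 2538).

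Levels below are CPM, each gene's UMIs summed over a class and divided by all UMIs of that class, on the usual scale of which all genes of a class share the same total. The 23 G2/M genes summed to 1336 CPM in D2 fibroblast-like cells against 54.4 CPM in Sham, a ratio of 24.6 (22.7 to 26.6), and to 101 CPM at D7, 1.85 times Sham. The 12 S phase genes summed to 466 CPM at D2 against 128 CPM in Sham, 3.65 times higher, and to 129 CPM at D7, 1.01 times Sham. The G2/M sum thus differed far more than the S phase sum. Ccnd1 went the other way at D7, with 58.7 CPM in Sham, 53.2 CPM at D2 and 24.7 CPM at D7, which was 2.38-fold lower than Sham.

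Single members differed widely in these cells. Birc5 stood at 177 CPM at D2 against 2.75 CPM in Sham (64.4-fold; 46.3 to 91.8), and at 8.67 CPM at D7. Cdc20 stood at 70.9 CPM at D2 against 1.17 CPM in Sham (60.6-fold), Cenpa at 167 against 3.30 CPM (50.7-fold) and Ccnb1 at 41.7 against 1.03 CPM (40.4-fold). Mki67 stood at 91.2 CPM at D2 against 5.91 CPM in Sham (15.4-fold) and Top2a at 55.8 against 7.91 CPM (7.05-fold). The S phase members ranged from Pclaf, with 122 CPM at D2 against 2.82 CPM in Sham (43.4-fold), through Mcm5 (8.14-fold) to Pcna (1.69-fold) and Mcm4 (1.47-fold). The gene with the highest D7 ratio was Cdk1, with 8.67 CPM at D7 against 2.13 CPM in Sham (4.07-fold). With at least 50 CPM and 20 UMIs required in the higher library, 18 members could be read at D2. Most passed through the D2 library alone, in which they were high, so their direction was largely set by that requirement and the counts are given as a description. Of these, 16 were at least 2-fold higher, where 15.1% of all genes read were, and the exceptions were Pcna and Ccnd1. None was at least 2-fold lower, where 16% of all genes read were. Of the 18 members read between D7 and D2, 17 were at least 2-fold lower at D7, where 6.06% of all genes were. Ccnd1 was the only member that could be read between D7 and Sham, and it was lower, where 11.2% of all genes were.

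The inhibitors of cyclin-dependent kinases, which hold cells in G1, were read alongside. At D2 all 3 readable ones were at least 2-fold lower than in Sham in fibroblast-like cells, where 16% of all genes read were: Cdkn1a, encoding p21, had 25.5 CPM at D2 against 257 CPM in Sham and was 10.1-fold lower, Cdkn1c was 4.42-fold lower and Cdkn1b 2.14-fold lower. At D7 1 of 3 was at least 2-fold lower than in Sham, where 11.2% of all genes were: Cdkn1a was 4.45-fold lower, while Cdkn1b stood at 87.0 CPM at D7 against 78.0 CPM in Sham and Cdkn1c at 162 against 104 CPM. Among 43 other mitosis genes, 16 could be read at D2 and 14 were at least 2-fold higher than in Sham, and at D7 1 of 7 was, where 7.82% of all genes read were. Over all genes read, the median log2 ratio of (CPM + 1) was 0.06 at D2 and -0.07 at D7.

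Smooth muscle-like cells showed no dividing cell in Sham (0 of 112, which allows a share of up to 2.68% by a limit of 3 cells and 3.24% by the exact interval), 3 of 11 at D2 and 23 of 258 at D7 (8.91%; 5.74 to 13.1). The D7 share was 3.33 times the Sham limit of 3 cells, and the exact interval of the D7 over Sham ratio began at 2.495. The D2 cells were too few for a comparison. Unthinned levels of the G2/M genes summed to 879 CPM at D7 against 22.6 CPM in Sham, 38.9 times higher, and those of the S phase genes to 337 CPM against 133 CPM, 2.53 times higher. Birc5 had 302 UMIs at D7 against 0 in Sham, at least 23.9-fold higher with Sham set to 3 UMIs, with an exact interval that began at 19.3. Top2a and Ube2c, at 67.5 CPM each at D7 and 0 UMIs in Sham, were at least 17.9-fold higher by the same limit (exact interval from 14.5), and Pclaf at least 17.6-fold (from 14.2). Mki67 had 188 UMIs at D7 against 1 in Sham, a ratio of 44.5 with an interval from 7.90 to 1769. Pcna showed 75.3 CPM in both, with a ratio of 0.999 (0.751 to 1.35).

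Ccnd1 stood higher in smooth muscle-like cells as well: 115 CPM at D7 against 15.1 CPM in Sham, 7.64 times higher (4.32 to 14.9). Dividing cells held 22.7% of the D7 Ccnd1 UMIs in this class. Of the 9 members that could be read, 8 were at least 2-fold higher at D7, where 9.87% of all genes read were, and 10 of 13 readable other mitosis genes were. Birc5, Top2a, Ube2c and Pclaf had 0 UMIs in Sham and were readable through D7 alone, so the count only describes these members. The 23 dividing cells carried fewer pericyte markers than the other D7 cells of the cluster, with a summed 1358 CPM against 5710 CPM. Fibroblast markers were higher in them, with 13244 CPM against 8944 CPM, close to their smooth muscle markers at 13359 CPM, and 6 of the 23 cells exceeded 10000 CPM of fibroblast markers. The part of pericytes and of fibroblasts in the class values was not tested.

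Endothelial-like cells had a dividing share of 1.44% in Sham (5 of 348; 0.468 to 3.32), 17.7% at D2 (14 of 79; 10.0 to 27.9) and 5.50% at D7 (18 of 327; 3.29 to 8.56). The D2 share was 12.3 times the Sham share (4.20 to 43.8), the D7 share 3.83 times (1.37 to 13.2), and the D7 share was 0.311 times the D2 share (0.146 to 0.675). Within the larger endothelial-like cluster, led by Fabp4 and Adgrl4, the shares were 1.43% in Sham, 20.8% at D2 and 6.93% at D7, in the same order as in the class.

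In this class S phase genes stood higher along with mitotic ones. The S phase sum was 704 CPM at D2 against 206 CPM in Sham (3.41 times), the G2/M sum 745 against 129 CPM (5.76 times), and Ccnd1 305 against 144 CPM (2.12 times). Cenpe, the kinesin that moves chromosomes to the spindle equator, had 45 UMIs at D2 against 1 in Sham, a ratio of 62.8 with an interval from 10.7 to 2534. Ccnb2 was 15.9-fold, Birc5 12.1-fold, Mcm5 11.0-fold, Mki67 7.32-fold, Top2a 4.29-fold and Pcna 2.19-fold higher at D2 than in Sham. All 13 readable members were at least 2-fold higher at D2, where 10% of all genes read were, and 2 of 4 were at D7, where 5.21% were. Here too members became readable mainly through the library in which they were high, and the counts only describe them. Between D7 and D2, 6 of 13 were at least 2-fold lower at D7, where 1.01% of all genes were. Of the inhibitors, Cdkn1c, encoding p57, was 18.3-fold lower at D2 and 3.23-fold lower at D7 than in Sham, and Cdkn1a was 2.70-fold lower at D2 and 3.32-fold lower at D7, where 10.4% of all genes read were at least 2-fold lower at D2 and 6.3% at D7.

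Smaller stromal classes are given as counts. Lymphatic endothelial-like cells had 2 of 286 dividing in Sham, 3 of 29 at D2 and 4 of 128 at D7. Schwann-like cells had 0 of 31 in Sham, 0 of 7 at D2 and 6 of 37 at D7 (16.2%; 6.19 to 32.0). The intervals of both classes were wide, and the Sham interval of the Schwann-like class overlapped that of D7.

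Monocyte/macrophage-like cells held the largest number of dividing cells after injury. The share was 1.04% in Sham (9 of 866; 0.476 to 1.96), 1.74% at D2 (72 of 4138; 1.36 to 2.19) and 4.99% at D7 (132 of 2644; 4.19 to 5.89). Without thinning it was 6.98%, 20.1% and 19.0%, so the unthinned shares at D2 and D7 lay close together where the thinned ones did not. The D7 share was 4.80 times the Sham share (2.46 to 10.7) and 2.87 times the D2 share (2.14 to 3.88), and the D2 share was 1.67 times the Sham share (0.835 to 3.81), an interval that includes 1.

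Different clusters held this class in each library: 76.7% of Sham cells lay in a cluster led by Cd209f and Retnla, 36.5% of D2 cells in a cluster led by Acp5 and St18, and 36.7% of D7 cells in a cluster led by Arg1 and Mmp12. Within the Acp5 and St18 cluster the share was 10.6% at D7 (55 of 517) against 3.26% at D2 (48 of 1472), a ratio of 3.26 (2.17 to 4.91). Within the Arg1 and Mmp12 cluster it was 6.33% at D7 (64 of 1011) against 0.731% at D2 (8 of 1095), a ratio of 8.66 (4.14 to 20.9). The Chil3 and Plac8 cluster, whose leading genes are known from blood monocytes, gave 1 of 608 at D7 and 1 of 662 at D2, too few for a comparison (ratio 1.09; 0.0139 to 85.5). The Ccl8 and Cbr2 cluster gave 3.53% at D7 (9 of 255) against 1.97% at D2 (13 of 659), a ratio of 1.79 (0.675 to 4.52) that includes 1. The higher D7 share was therefore present within the Acp5 and St18 and the Arg1 and Mmp12 clusters and undecided in the Chil3 and Plac8 and the Ccl8 and Cbr2 clusters.

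Levels in this class differed more for mitotic genes than for S phase genes. The G2/M sum was 395 CPM at D7 against 107 CPM in Sham (3.68 times) and 180 CPM at D2 (1.67 times). The S phase sum was 328 CPM at D7 against 224 CPM in Sham (1.46 times). Ccnb1, the main mitotic B-type cyclin, had 0.308 CPM in Sham, 2.64 at D2 and 7.26 at D7. Its D7 value was 23.6 times Sham (6.45 to 196, from 2 Sham UMIs). Ccna2 was 10.2-fold, Pclaf 7.17-fold, Birc5 6.42-fold, Top2a 4.28-fold, Mcm5 3.56-fold and Mki67 2.72-fold higher at D7 than in Sham, whereas Pcna stood at 130 against 143 CPM. For Ccnd1 the values were 53.5 CPM in Sham, 51.6 CPM at D2 and 79.3 CPM at D7. Only 3 members reached 50 CPM at D7, of which Mki67 was at least 2-fold higher than in Sham, where 8.14% of all genes read were. At D2 0 of 2 were, where 5.71% were. Mki67 was readable through D7 alone, so the count only describes it.

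**Figure D2:**
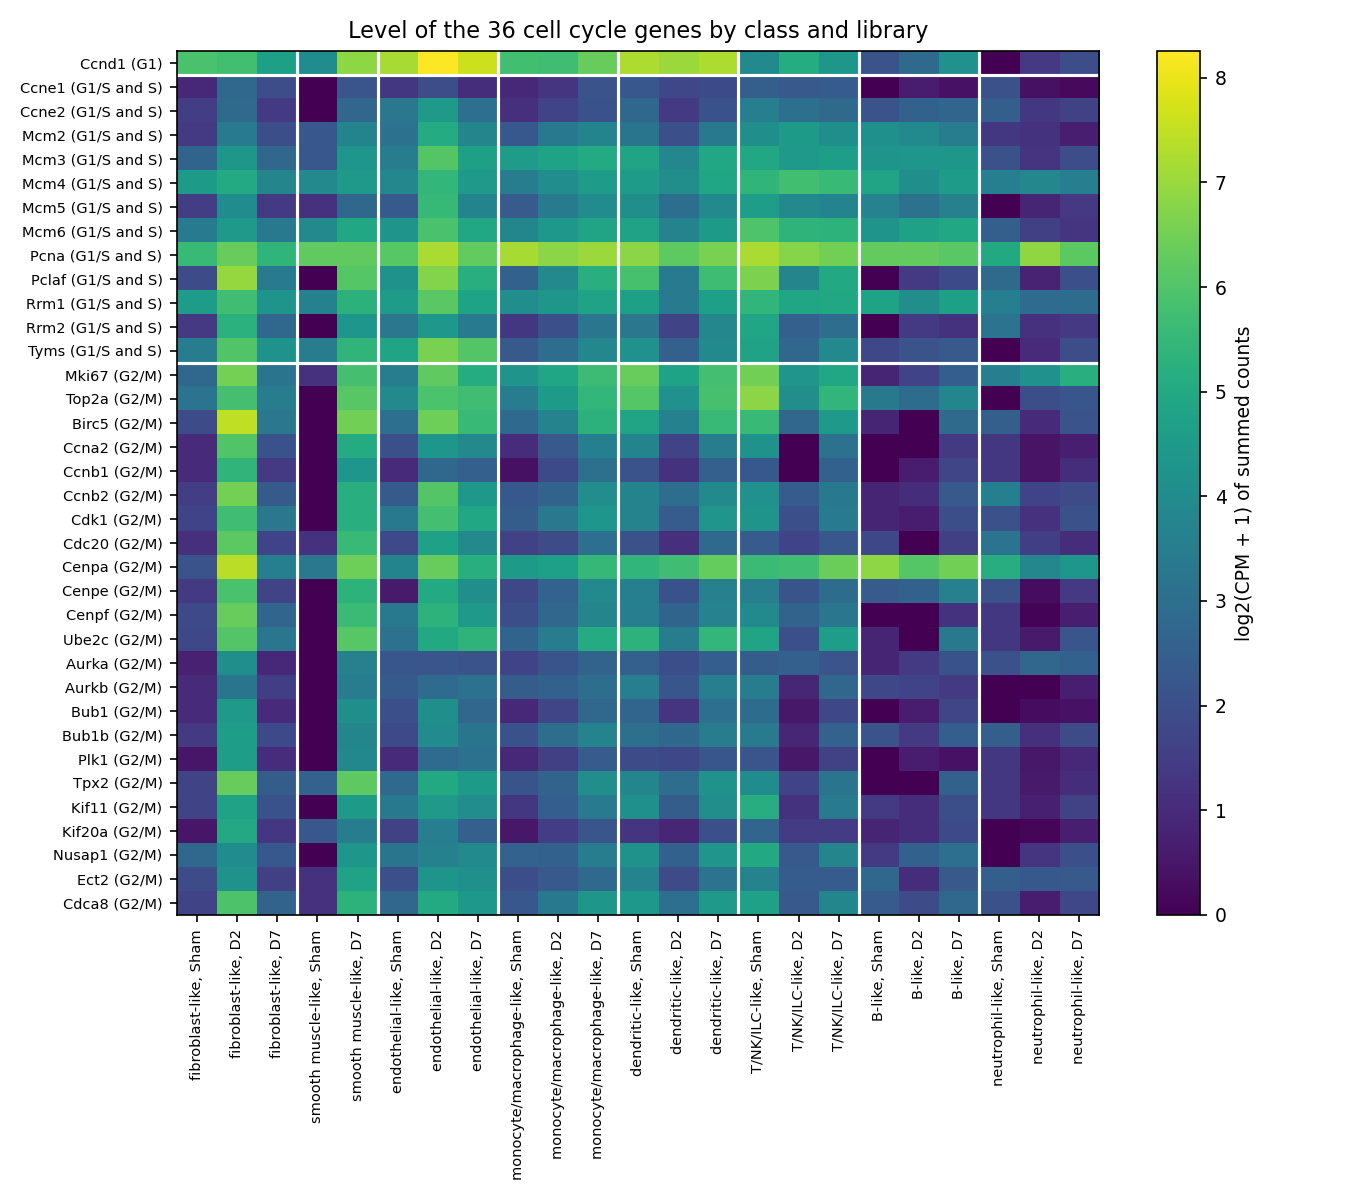
Level of each of the 36 members (rows, grouped as G1, G1/S and S, and G2/M) in 8 classes of each library (columns), as log2 of (CPM + 1) of summed UMIs on the colour scale. The G2/M rows are highest in D2 fibroblast-like and D7 smooth muscle-like cells, and the rows of Pcna and Cenpa stay high in classes with few dividing cells. Smooth muscle-like cells at D2 are not drawn.

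Dendritic-like cells were among the most often dividing cells of the Sham vessels. The share was 6.71% in Sham (29 of 432; 4.54 to 9.50), 1.80% at D2 (18 of 1000; 1.07 to 2.83) and 6.19% at D7 (38 of 614; 4.42 to 8.40). The D2 share was 3.73-fold lower than the Sham share (ratio 0.268; 0.140 to 0.499), and the D7 share was 0.922 times the Sham share (0.554 to 1.55) and 3.44 times the D2 share (1.91 to 6.40). The make-up of the class differed: 97.5% of Sham cells lay in a cluster led by Lyz1 and Cd209a, whereas 50.8% of D2 cells lay in a cluster led by Dscam and Klrd1 that held mature dendritic markers and in which 2 of 512 D2 cells were dividing. Within the Lyz1 and Cd209a cluster the shares were 6.89% in Sham (29 of 421), 3.28% at D2 (16 of 488) and 8.89% at D7 (37 of 416), and the D2 share was 0.476 times the Sham share (0.241 to 0.906). At Leiden resolution 2, a dendritic-like cluster led by Lyz1 and Retnla held 283 Sham, 12 D2 and 29 D7 cells. In Sham, macrophage markers summed to 2415 CPM in dividing and 6763 CPM in other dendritic-like cells. Dendritic markers summed to 1409 and 1695 CPM. The part of such differing make-up in the shares was not tested.

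Members stood lower at D2 in this class by a similar factor in both phases: the S phase sum was 0.470 times and the G2/M sum 0.427 times the Sham sum. Pclaf was 5.69-fold, Ccna2 5.57-fold, Top2a 3.82-fold and Mki67 2.99-fold lower at D2 than in Sham. Cenpa stood at 51.4 CPM at D2 against 42.1 CPM in Sham, and Ccnd1 at 129 against 149 CPM. Of 6 readable members, 3 were at least 2-fold lower at D2 than in Sham, where 6.82% of all genes read were. Between D7 and D2, 3 of 6 were at least 2-fold higher at D7, where 1.64% were. The level was required in the higher library alone, which favours members that were high there, so both counts only describe them. At D7 the 38 dividing cells were also set against the other dendritic-like cells: all 3 readable maturation genes were at least 2-fold lower in dividing cells, where 2.71% of all genes read were, with a median log2 ratio of -3.22. This sets clusters apart, since 37 of the 38 dividing cells lay in the Lyz1 and Cd209a cluster while 1 of 198 D7 cells of the mature cluster was dividing, and no maturation gene could be read within the Lyz1 and Cd209a cluster. Genes of DNA replication outside the 36 members were at least 2-fold higher for 14 of 14, where 7.87% of all genes were.

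T, NK and innate lymphoid-like cells had a dividing share of 4.77% in Sham (24 of 503; 3.08 to 7.02), 2.16% at D2 (7 of 324; 0.873 to 4.40) and 2.18% at D7 (19 of 873; 1.32 to 3.38). The D7 share was 2.19-fold lower than the Sham share (ratio 0.456; 0.236 to 0.869), and the D2 share was 0.453 times it (0.165 to 1.08). In the cluster led by Lef1 and Themis the share was 6.08% in Sham (9 of 148), 1.01% at D2 (2 of 199) and 1.45% at D7 (7 of 482). In the NK-marker cluster led by Gzma and Ccl5 it was 5.97% in Sham (12 of 201), 5.0% at D2 (4 of 80) and 2.91% at D7 (8 of 275), and the D7 over Sham ratio of 0.487 had an interval that includes 1 (0.173 to 1.30). In the cluster led by Dach2 and Trdc it was 1.95% in Sham (3 of 154), 2.22% at D2 (1 of 45) and 3.45% at D7 (4 of 116), a D7 over Sham ratio of 1.77 (0.299 to 12.1). The lower D7 share of the class was thus read in the Lef1 and Themis cluster, where the D7 over Sham ratio was 0.239 (0.0756 to 0.721).

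The lymphoid sums stood below Sham after injury, as the shares did. The G2/M sum was 0.243 times the Sham sum at D2 and 0.562 times at D7. The S phase sum was 0.603 and 0.605 times the Sham sum. Between D7 and D2 the G2/M sum did not follow the shares. It was 2.31 times higher at D7 (2.05 to 2.62), while the shares were 2.18% and 2.16%. Kif11, the motor that separates spindle poles, had 3 UMIs at D2 and 124 in Sham (ratio 0.0381; 0.00775 to 0.114), and its D7 level was 3.55-fold lower than the Sham level. Top2a was 6.99-fold and Mki67 4.79-fold lower at D2, and Mki67 was 2.94-fold and Rrm2 4.18-fold lower at D7. Ccna2 had 0 UMIs at D2 and 63 in Sham. Cenpa went the other way, with 83.1 CPM at D7 against 48.4 CPM in Sham (1.72 times; 1.44 to 2.06). Of the readable members, 3 of 7 were at least 2-fold lower at D2, where 2.91% of all genes read were, and 3 of 6 at D7, where 2.83% were. Between D7 and D2 only 3 members could be read. Members thus became readable in part through Sham alone, in which they were high, and the counts only describe them.

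**Figure D3:**
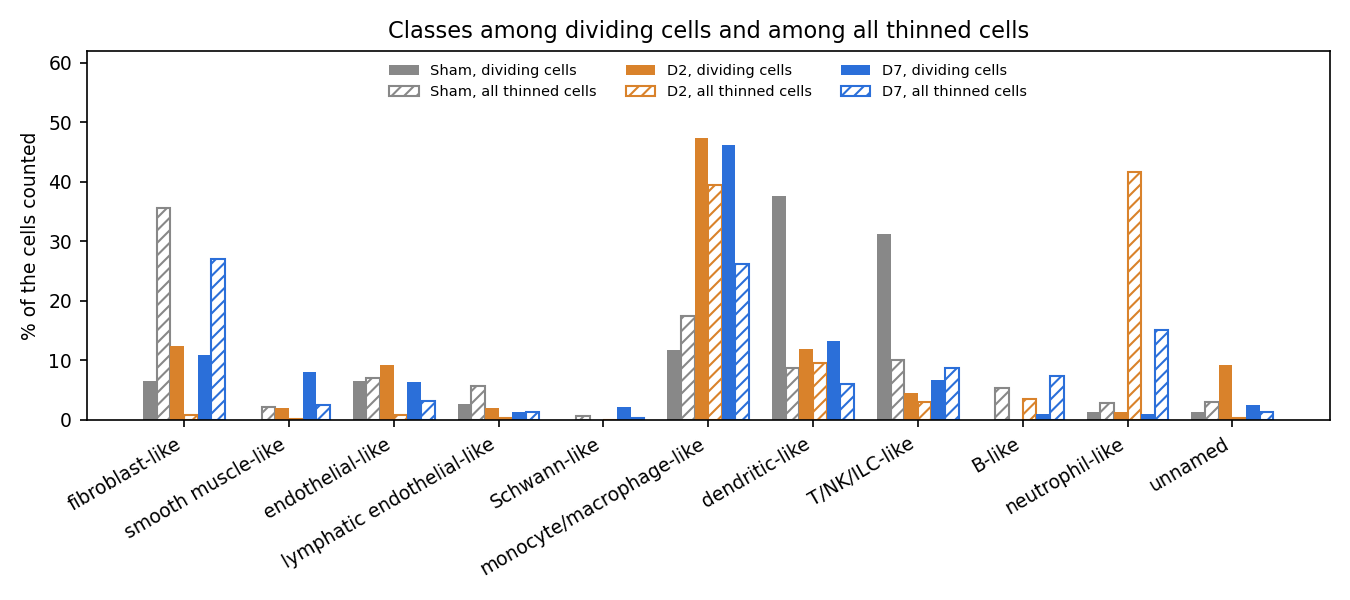
Make-up of the dividing cells of each library by class (y axis, percent) beside the make-up of all thinned cells, for Sham, D2 and D7. Dendritic-like and T/NK/ILC-like cells make up 37.7% and 31.2% of dividing cells in Sham, and monocyte/macrophage-like cells make up 47.4% at D2 and 46.2% at D7.

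The classes that supplied the dividing cells thus differed by library. In Sham, dendritic-like cells gave 37.7% and lymphoid-like cells 31.2% of dividing cells, though they were 8.67% and 10.1% of thinned cells, and fibroblast-like cells gave 6.49% while being 35.6% of thinned cells. At D2, monocyte/macrophage-like cells gave 47.4% of dividing cells and were 39.5% of cells, while fibroblast-like cells gave 12.5% and endothelial-like cells 9.21% from 0.763% and 0.754% of cells. Neutrophil-like cells, 41.7% of the D2 cells, gave 1.32% of the dividing ones. At D7, monocyte/macrophage-like cells gave 46.2% (26.2% of cells), dendritic-like cells 13.3%, fibroblast-like cells 10.8% (27.0% of cells) and smooth muscle-like cells 8.04% (2.56% of cells). Since sorting and dissociation set which cells were captured, the make-up of a library is not that of the vessel.

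**Figure D4:**
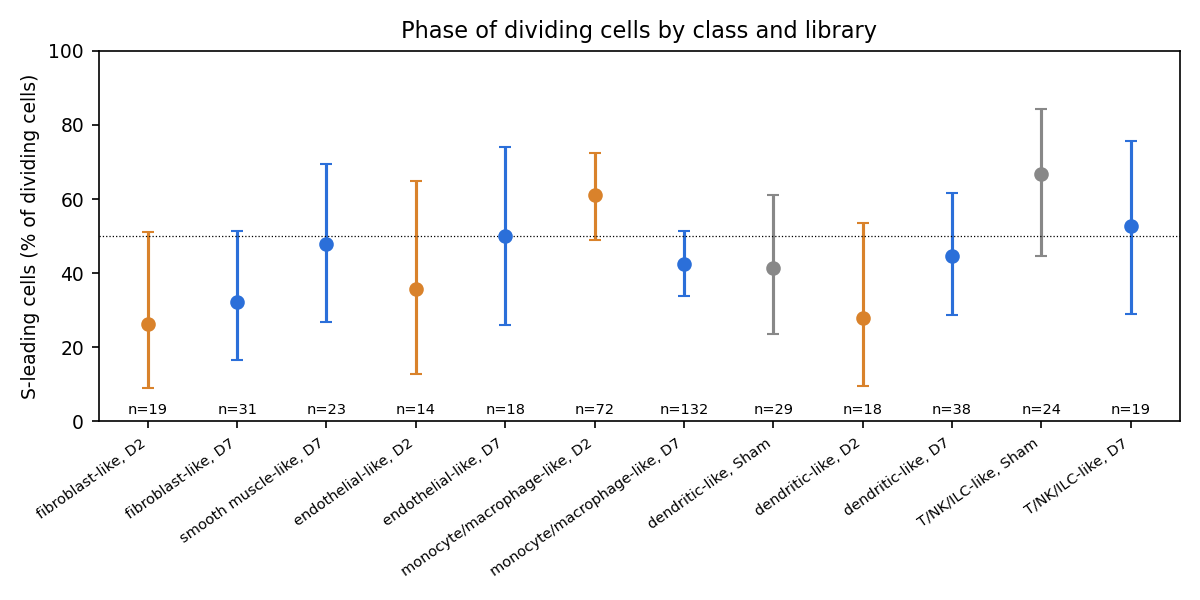
Share of dividing cells in which S phase members led (y axis, percent, exact 95% binomial intervals) for each class with enough dividing cells (x axis) in Sham, D2 and D7. Monocyte/macrophage-like cells stand at 61.1% at D2 and 42.4% at D7, and the dotted line marks 50%.

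Within dividing cells, a cell was called S-leading when the share of the 12 S phase members detected in it was above the share of the 23 G2/M members. S-leading cells were 53.2% of dividing cells in Sham (41 of 77; 41.5 to 64.7), 51.3% at D2 (78 of 152; 43.1 to 59.5) and 43.0% at D7 (123 of 286; 37.2 to 49.0). Among monocyte/macrophage-like cells the share was 42.4% at D7 (56 of 132; 33.9 to 51.3) against 61.1% at D2 (44 of 72; 48.9 to 72.4). Fibroblast-like cells were mostly G2/M-leading, with S-leading shares of 26.3% at D2 (5 of 19) and 32.3% at D7 (10 of 31). Smooth muscle-like cells at D7 gave 47.8% (11 of 23), and Sham lymphoid-like cells 66.7% (44.7 to 84.4). Free RNA of Pcna and other S phase genes can enter these calls, and its part was not tested.

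Ccnd1 followed the order of the dividing shares over the libraries in some classes and not in others. In endothelial-like cells it had 144 CPM in Sham, 305 at D2 and 199 at D7, in the order of the shares. In smooth muscle-like cells it was higher at D7 than in Sham, as the share was, while the D2 cells were too few for a comparison. In dendritic-like cells it had 149, 129 and 151 CPM in Sham, D2 and D7. Ccnd1 was thus lowest at D2, as the share was, and its D7 over Sham ratio of 1.02 (0.923 to 1.12) included 1. In fibroblast-like cells it had its lowest level at D7, although the D7 share was above the Sham share. In CPM it stood at 310, 257 and 359 in Sham, D2 and D7 lymphatic endothelial-like cells, at 174, 307 and 217 in Schwann-like cells and at 578, 296 and 353 in plasmacytoid dendritic-like cells. The 307 CPM came from 22 UMIs of 7 cells (192 to 465). The 578 CPM came from 38 UMIs of 6 cells (409 to 793), and both were too few for a comparison. Ccnd1 was near 0 in neutrophil-like cells (0, 1.59 and 2.86 CPM) and low in B-like cells (3.31, 6.02 and 17.3 CPM). In lymphoid-like cells it stood at 33.7 CPM at D2 against 14.6 CPM in Sham, while their G2/M sum stood lower.

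Dividing monocyte/macrophage-like cells differed from the other cells of the class in genes that did not choose them. At D7 all 7 readable genes of the monocyte list were at least 2-fold lower in the 132 dividing cells than in the rest, where 4.32% of all genes read were, with a median log2 ratio of -3.86. Plac8 stood at 38.1 CPM in dividing cells against 803 CPM in the others (21.1-fold lower), Ly6c2, the Ly6C antigen of inflammatory monocytes, was 25.9-fold lower, and Ccr2, the receptor that draws monocytes from blood, was 2.85-fold lower. Plac8 and Ly6c2 were also leading genes of the Chil3 and Plac8 cluster, in which 1 of 608 D7 cells was dividing. These ratios over the whole class thus also set clusters apart, and the part of that cluster in them was not tested. At D2 all 6 readable genes of that list were at least 2-fold lower in the 72 dividing cells, where 9.41% of all genes were, with a median of -3.21. Within single clusters only 2 genes of the list could be read at D7, and their medians were -1.92 in the Acp5 and St18 cluster and -2.88 in the Arg1 and Mmp12 cluster, readings chosen after the data were seen.

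Other macrophage lists had medians nearer 0. Of the resident list 3 of 5 readable genes were at least 2-fold lower at D7 and 1 of 5 at D2, and 5 of 5 were within the Acp5 and St18 cluster at D2. At D7 MHC class II genes, which present antigen, were at least 2-fold lower for 4 of 5, and Cd74, their chaperone, stood at 2223 CPM in dividing cells against 5107 CPM in the others. Of the wound list 3 of 5 were lower: Thbs1, encoding thrombospondin 1, stood at 58.2 against 984 CPM (16.9-fold lower), Vegfa was 8.09-fold and Arg1 2.09-fold lower. Thbs1 was also a leading gene of the Chil3 and Plac8 cluster, whose part in its ratio was not tested. None of the 7 readable genes of the recruited and lipid-handling list differed at least 2-fold in either direction, where 6.35% of all genes were higher, but 4 of the 7 were lower within the Acp5 and St18 cluster at D2, with a median log2 ratio of -1.34. Within the Acp5 and St18 cluster at least 2-fold lower MHC class II genes numbered 6 of 6 at D7, where 3.97% of all genes read were, and 5 of 5 at D2, where 17% were. Within the Arg1 and Mmp12 cluster they numbered 4 of 5 at D7, where 2.23% were. Neutrophil markers, read as a sign of free RNA, summed to 274 CPM in dividing and 380 CPM in other cells of the class at D7, and to 117 CPM in dividing cells without the 1 cell that held most of them. At D2 they summed to 709 CPM in dividing and 376 CPM in other cells, and to 501 CPM in dividing cells without the highest cell. The part of free RNA in the lower values was not tested. A single D7 dividing cell held 99.4% of the erythroid marker UMIs of the dividing cells, which summed to 1328 CPM with it and 8.44 CPM without it.

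**Figure D5:**
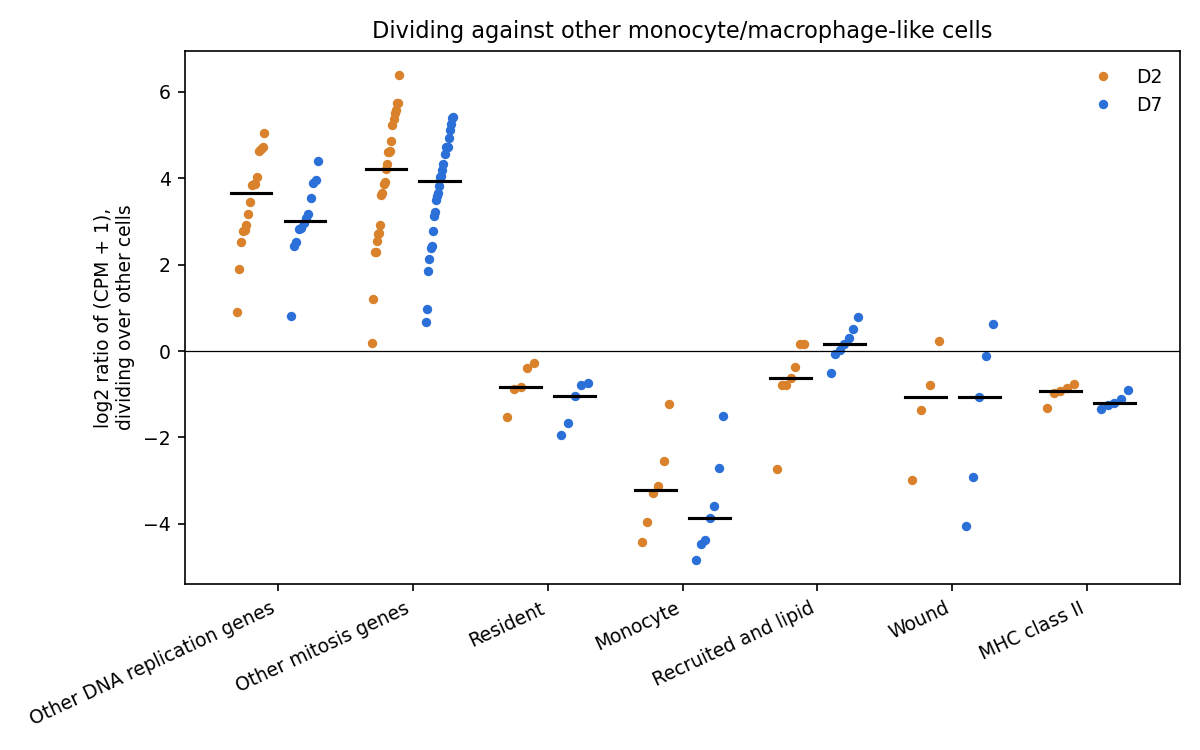
Each point is a gene of a list (x axis) placed by its log2 ratio of (CPM + 1), dividing over other monocyte/macrophage-like cells (y axis), at D2 and D7, with bars at the medians. The monocyte list lies lowest, with medians of -3.21 at D2 and -3.86 at D7, and other cell cycle genes lie above 0.

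Dividing fibroblast-like cells at D7 numbered 31, and 9.07% of all genes read were at least 2-fold higher and 3.95% at least 2-fold lower in them. Acta2, the smooth muscle actin of contractile cells and myofibroblasts, stood at 725 CPM in them against 75.2 CPM in the other D7 cells of the class (9.64-fold higher), and Tnc, the matrix protein tenascin C, was 2.73-fold higher. Comp and Aspn, which encode matrix proteins, were 3.62-fold and 2.56-fold lower, and Pi16, a marker of adventitial progenitors, was 2.84-fold lower. Over their lists, 2 of 9 readable injury matrix genes were at least 2-fold higher and 2 at least 2-fold lower (median log2 ratio -0.01), and 2 of 7 adventitial progenitor genes were lower (median -0.89). The Mfap4 and Cthrc1 cluster held 27 of the 31 dividing cells. Within it 6 of 7 adventitial progenitor genes were at least 2-fold lower and 0 higher (median -1.61). That reading was added after the data were seen, and the share over all genes of the cluster is not given here. Cdkn2d, Cdkn2c and Cdkn1a were 4.07-fold, 3.71-fold and 2.56-fold higher in dividing cells, and Cdkn1c was 2.41-fold lower. Smooth muscle markers, Acta2 among them, summed to 1553 CPM in dividing against 248 CPM in other cells, and 1 cell held 61.8% of their UMIs in dividing cells, without which the sum was 669 CPM. Macrophage markers also moved with these values: they summed to 2770 CPM in dividing against 271 CPM in other cells, and 4 of the 31 dividing cells exceeded 10000 CPM of them, whose part in the result was not tested. In endothelial-like dividing cells at D7 the same markers summed to 1197 against 277 CPM, with 81.0% of them in 1 cell.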

How the data were processed

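The authors deposited 1 matrix of UMI counts per library with its genes and barcodes, not normalized. Cell Ranger 7.2.0, Seurat 5.0.1 and mm10 are named in the submitters' processing notes, while the file headers name Cell Ranger 7.1.0. The deposited counts summed to 39756684 UMIs in Sham, 98260210 in D2 and 100571340 in D7. Group and time were taken from the labels.

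Cells with fewer than 300 genes or 500 UMIs, or more than 15% mitochondrial UMIs, were removed (306 Sham, 217 D2 and 363 D7 barcodes). Scrublet in scanpy 1.11.5 then marked and removed 64 (0.859%), 473 (4.12%) and 316 (2.82%) doublets. Cells were clustered on 2000 variable genes without 448 cell cycle genes, with 30 components and Leiden resolution 1 (leidenalg 0.10.2). Clusters were named from fixed markers, read with state lists of the same class for the leading genes, a rule settled after the clusters were seen. No deposited annotation was used, so classes may differ from those of the study.

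Class levels are sums of UMIs within a library, scaled to CPM. A gene was read where the higher group had at least 50 CPM and 20 UMIs, and called at a 2-fold ratio of (CPM + 1). Ratios of counts have exact conditional binomial intervals, shares exact Clopper-Pearson intervals, all at 95%. A count of 0 was given a limit of 3 counts. PCR duplicates are collapsed by UMIs, yet cells of a library share their source, so intervals cover counting error only. The fold call was tested on simulated data drawn from the class sums.

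The text names Mki67, Top2a, Ccnb1, Mcm5, Pcna and Ccnd1 in the main classes, plus members with the 4 largest and 2 smallest ratios, in part. Other genes are the furthest of their list above 50 CPM. The members and all lists were chosen with earlier results of these data known. Alternatives changed the thinning depth, the members needed, the member list, the seed, the cell filter, doublets, clustering, class naming, the fold and the level filter. Readings within clusters, and states in classes with 10 rather than 20 dividing cells, were added after the data were seen.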

Additional observations from a re-analysis of the deposited data

Results flagged for a closer look

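The dividing share of dendritic-like cells at D2 was 0.268 times the Sham share, while that of fibroblast-like and endothelial-like cells was above the Sham share. It is listed because the directions were opposite under the same comparison. The difference between the classes was not tested, as there was 1 library per condition.

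The dividing share of T, NK and innate lymphoid-like cells at D7 was 0.456 times the Sham share, while fibroblast-like, smooth muscle-like, endothelial-like and monocyte/macrophage-like cells stood above their Sham shares. This difference in direction was not tested either.

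A cluster that stayed unnamed, led by Ctla2a and Ppbp with a median of 774 UMIs per cell, had a dividing share of 51.9% at D2 (14 of 27 thinned cells; 31.9 to 71.3) and 5 of 8 at D7. It is listed because it lies outside the classes compared. Only 27 of its 249 D2 cells reached 2000 UMIs. Its 14 dividing D2 cells showed 9 of 10 fibroblast markers, at a summed 2811 CPM.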

How the results depend on the processing

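Thinning to 1000 UMIs gave dividing shares of 1.01% in Sham, 0.830% at D2 and 1.56% at D7, and 3.21% in D7 smooth muscle-like cells, and thinning to 3000 UMIs gave 2.37%, 2.15% and 3.86%, and 13.5% in D7 smooth muscle-like cells. With at least 3 members the shares were 2.79%, 2.57% and 4.44%, and 13.95% in D7 smooth muscle-like cells. With at least 6 they were 0.840% at D2, 1.88% at D7 and 4.65% in D7 smooth muscle-like cells, and with at least 3 G2/M members 1.02% at D2 and 2.23% at D7. The Sham share with at least 6 members stayed within its first interval of 1.22 to 1.93, so the D2 share lay below it under that rule. The D2 over Sham ratio of fibroblast-like shares was 366 when cell cycle genes were kept in the clustering. S-leading shares were 38.6% at D2 and 34.7% at D7 with at least 6 members, and at D7 31.9% at 1000 UMIs and 50.4% at 3000 UMIs.

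Counts of members depended on the filter. For T/NK/ILC-like cells at D7, 5 were lower at 1.5-fold, 7 with at least 20 CPM and 10 UMIs and 11 with at least 3 UMIs. For monocyte/macrophage-like cells, 1 was higher at D2 with at least 20 CPM and 8 with at least 3 UMIs, and at D7 8 and 27, 0 by the mean over cells and 2 with a class given to each cell. For D2 fibroblast-like cells 33 were higher with at least 3 UMIs and 5 by the mean over cells. The median log2 ratio of adventitial progenitor genes in dividing over other D2 fibroblast-like cells, -1.27 as first read, was 0.23 with at least 6 members. The cause of these differences was not tested. Of the other recomputed values, 138 single ones moved by more than their counting interval, 1.5 times for counts of genes or 0.5 for median log2 ratios, while 128 main and 814 single ones moved by less.

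Depth limits the low members: few reached 20 UMIs in Sham classes. No paired analysis was possible because each condition had 1 library and the labels carry no replicate number. The smallest classes, D2 smooth muscle-like and Schwann-like cells, allow no comparison.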

Other observations

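Dividing lymphoid-like cells were set against the rest of their class. In Sham lymphoid-like cells 4 of 6 NK genes, 2 of 2 gamma delta T genes and 2 of 3 genes of group 2 innate lymphoid cells were at least 2-fold lower in the 24 dividing cells than in the other 479, where 10.6% of all genes were. Yet 12 of the 24 lay in the NK-marker cluster. At D7, in 19 dividing cells, 2 of 6 NK and 2 of 2 gamma delta T genes were lower, where 7.12% of all genes were. There 2 of 3 genes of group 2 innate lymphoid cells were higher, where 10.7% of all genes were. Among called doublets, which were left out, 1 of 57 was dividing in Sham, 4 of 451 at D2 and 7 of 294 at D7 (2.38%; 0.963 to 4.84), against 1.55%, 1.45% and 2.83% of the cells kept.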
